A study of Mus musculus with 84 samples.

Results

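Expression of 7 genes that mark classes of inhibitory interneurons was followed in amygdala dissections: Pvalb, Vip, Calb1, Calb2, Nos1, Reln and Cck. They were chosen by symbol, gave 7 rows among the 43629 genes of the deposited table, and each row was measured in all 84 animals. The animals were 41 male and 43 female HS-CC mice, an outbred stock derived from the Collaborative Cross founder strains, with a median age of 15 weeks at the start. All of them chose between water and 10% ethanol for 13 weeks, so none of the 84 went without ethanol, and drinking was recorded as preference (ethanol volume over total volume). The tissue, labelled central nucleus of the amygdala, was cut by laser from 25 micron sections on both sides of the brain, and each animal gave 1 library. Up to 3 animals came from 1 family, and the labels do not tie animals to families, so the animals were not all independent.

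Interneurons release GABA onto neighbouring neurons and are sorted by the calcium-binding proteins, peptides and enzymes that they make. Parvalbumin cells are fast-spiking and inhibit the cell body or axon start of principal neurons, whereas VIP cells mainly inhibit other interneurons. In the amygdala these classes are best known from the basolateral and cortical nuclei. The central nucleus consists mostly of GABA projection neurons and adjoins both the basolateral nucleus and the striatum. Cck is also transcribed in many excitatory pyramidal neurons, and Calb1 and Nos1 occur in projection neurons of several regions.

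Pvalb encodes parvalbumin, and its gene (ENSMUSG00000005716) lies at chr15:78191114-78206400 on the minus strand of GRCm38, as the table gives it. Vip (ENSMUSG00000019772, chr10:5639218-5647614, plus strand) encodes vasoactive intestinal peptide and Cck (ENSMUSG00000032532, chr9:121489825-121495689, minus strand) cholecystokinin. Calb1 (ENSMUSG00000028222, chr4:15881264-15908064, plus strand) encodes calbindin and Calb2 (ENSMUSG00000003657, chr8:110142539-110168206, minus strand) calretinin, both calcium buffers. Nos1 (ENSMUSG00000029361, chr5:117781032-117958840, plus strand) encodes neuronal nitric oxide synthase. Reln (ENSMUSG00000042453, chr5:21884454-22344702, minus strand) encodes reelin, a secreted glycoprotein. All values are read counts over exons. Exons of Nos1 overlap those of the antisense gene Gm26995, and exons of Reln those of Gm10475. The median counts per library were 3966 for Nos1 and 3042.5 for Reln, against 6 and 1 for their antisense partners.

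The promoters of Vip and Cck are shown because the levels of those genes ran together across animals, and that of Pvalb because its level sloped the other way. Each sequence is the 250 bases before the RefSeq transcription start (GRCm38.p6), read 5′ to 3′ on the gene's strand, with capitals for matches to TATAAA (the TATA box) or CAGATG (an E-box).
Vip, chr10:5638968-5639217 (+ strand): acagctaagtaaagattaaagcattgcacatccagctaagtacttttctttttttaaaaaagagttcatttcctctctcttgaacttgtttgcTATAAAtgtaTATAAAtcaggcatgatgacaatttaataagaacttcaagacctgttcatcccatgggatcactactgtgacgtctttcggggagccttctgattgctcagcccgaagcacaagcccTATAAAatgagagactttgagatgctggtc
Cck, chr9:121495695-121495944 (− strand): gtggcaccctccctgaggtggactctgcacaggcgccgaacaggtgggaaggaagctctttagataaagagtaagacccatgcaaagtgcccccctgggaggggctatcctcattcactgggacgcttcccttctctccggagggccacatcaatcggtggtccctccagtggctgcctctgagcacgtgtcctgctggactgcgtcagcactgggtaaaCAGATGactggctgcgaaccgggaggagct
Pvalb, chr15:78206401-78206650 (− strand): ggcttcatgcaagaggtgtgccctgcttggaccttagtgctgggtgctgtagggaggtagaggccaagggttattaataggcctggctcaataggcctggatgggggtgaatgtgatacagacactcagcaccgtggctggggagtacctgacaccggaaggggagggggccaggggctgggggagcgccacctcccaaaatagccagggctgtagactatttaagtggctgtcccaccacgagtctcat
Vip held 3 copies of TATAAA, at -157, -147 and -30 from the start, and Cck held 1 CAGATG, at -30. These motifs were searched on both strands, as were TGACGTCA (the cyclic AMP response element) and GGGCGG (the GC box). In 32851 promoters of the same length, TATAAA was found in 12.4%, CAGATG in 14.4%, TGACGTCA in 1.55% and GGGCGG in 32.7%. The printed windows of Vip and Cck shared no exact match to any of the 4 motifs, and the Pvalb window held none. Near matches were not counted, such as tgacgtct in the Vip window and tgcgtca in that of Cck, beside TGACGTCA. Whether the windows share variant forms of a motif was therefore not tested. The window of Reln, not printed, held 6 copies of GGGCGG and had a GC content of 80.0%, against 60.0% for Cck, 58.4% for Pvalb and 38.4% for Vip. The Nos1 entry started more than 50 bases from the start in the table and was not used. Calb1 and Calb2 were not matched.

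Total counts ran from 24118965 to 42036566 per library. The label was checked against 14 central amygdala neuron genes, which summed to 652 to 3588 CPM (read counts scaled by TMM factors to a common library size) in males and 947 to 2963 CPM in females. All 14 had a median of at least 1 CPM, but their lowest values varied: Sst, also an interneuron gene, ran from 230.2 to 570.2 CPM, Prkcd from 4.81 to 84.2, Crh from 1.99 to 21.5, and Isl1 from 0 to 23.3. Slc17a7, the vesicular glutamate transporter of cortical and basolateral excitatory neurons, reached a median of 1359 CPM, with a range of 39.2 to 2330 CPM in males and 13.0 to 2404 CPM in females. Adora2a, a receptor of striatal medium spiny neurons, ran from 1.45 to 458 CPM in males and from 1.63 to 365 CPM in females. Both genes served as dissection markers. In 10 libraries Slc17a7 lay at or below 471 CPM, and relations among the markers are given with and without them.

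The interneuron markers were all expressed, but their levels differed widely between animals. Vip ran from 2.61 to 61.8 CPM with a median of 23.4 in males, against 1.47 to 107 CPM with a median of 25.6 in females. Pvalb ran from 3.81 to 162.5 CPM with a median of 22.6 in males, and from 7.59 to 172.8 CPM with a median of 24.8 in females. Over males and females together, the highest library was 73.0 times the lowest for Vip, the widest fold of the markers, and 45.4 times for Pvalb. Cck ran from 33.9 to 410 CPM with a median of 227.9 in males, and from 13.8 to 527 CPM with a median of 244 in females. Calb2 ran from 9.94 to 246 CPM with a median of 70.6 in males, and from 15.8 to 173.5 CPM with a median of 64.9 in females. Male and female ranges overlapped for every marker.

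The remaining 3 were steadier. Nos1 ran from 73.7 to 341 CPM with a median of 128.4 in males, and from 30.1 to 309 CPM with a median of 109.6 in females. Reln ran from 31.003 to 195.1 CPM with a median of 96.8 in males, and from 40.5 to 180 CPM with a median of 104 in females. Calb1 was the steadiest, from 101 to 298 CPM with a median of 186.6 in males and from 94.2 to 331 CPM with a median of 179.6 in females. The SD of log2 CPM over animals was 1.13 for Vip, 0.97 for Pvalb, 0.93 for Cck, 0.92 for Calb2, 0.64 for Nos1, 0.62 for Reln and 0.40 for Calb1, against a median of 0.27 over 13374 expressed genes.

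Per kilobase of exon, Cck stood highest with a median of 339 CPM per kb. Calb2 followed with 47.9, Calb1 with 37.5, Pvalb with 23.7, Vip with 16.6, Nos1 with 11.2 and Reln with 5.14 CPM per kb. The ends of this order were firm: Cck exceeded Calb2 in 79 of 84 animals, and Nos1 exceeded Reln in 83. The middle was not, since Calb2 exceeded Calb1 in 53 animals, Calb1 exceeded Pvalb in 65, Pvalb exceeded Vip in 53 and Vip exceeded Nos1 in 58.

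**Figure D1:**
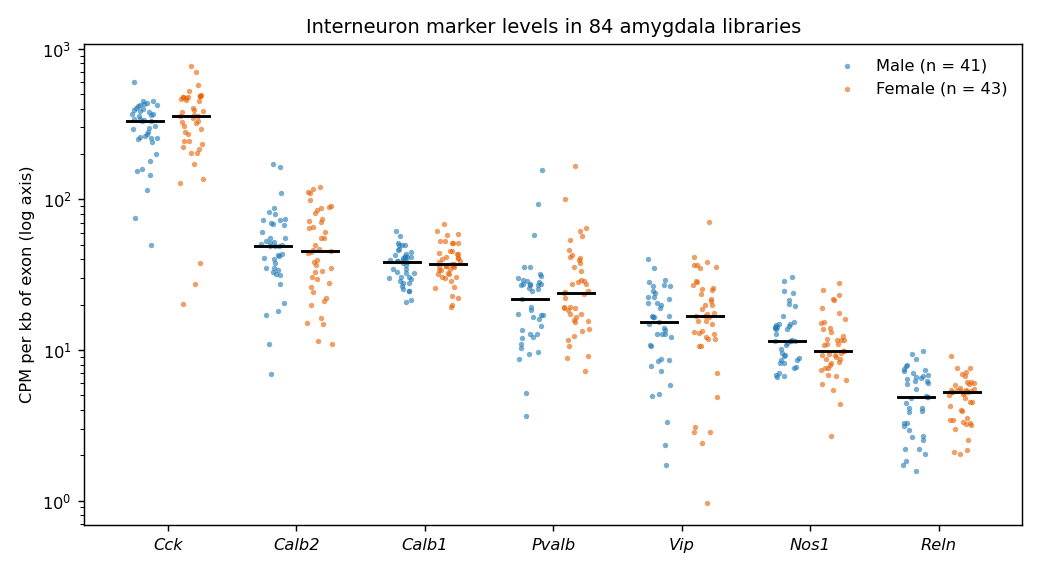
Levels of the 7 interneuron markers as CPM per kb of exon on a log axis, with 1 point per animal, males left of females and a bar at each median. Cck lies highest and Reln lowest, and the male and female points overlap for each gene.

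Single animals held extremes of several markers. Female 19 had the lowest Slc17a7 (13.0 CPM), the lowest Vip (1.47) and the lowest Cck (13.8), together with the highest Pvalb (172.8). Female 42 had the highest Vip (107 CPM) and Cck (527) and the lowest Nos1 (30.1), with a high Pvalb as well (104.3). Male 15 had the highest Calb2 (246 CPM) with 39.2 CPM of Slc17a7, and Male 19 had the highest Nos1 (341) with 154.8 CPM of Slc17a7. Animals are numbered within each sex in the order of the sample list.

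Levels were next set against Slc17a7, to ask how the markers track the excitatory tissue in a dissection. In these bulk samples, fewer cells of a type and less RNA per cell cannot be told apart. Vip and Cck went up with Slc17a7, Reln went up less steeply, and Pvalb and Calb2 went down. Per 1 log2 CPM of Slc17a7, with sex as a term, the log2 slope was 0.75 ± 0.05 for Vip (SE, edgeR adjusted p = 1.4e-21) and 0.55 ± 0.05 for Cck (5.9e-18). It was 0.18 ± 0.04 for Reln (edgeR adjusted p = 0.00047), -0.38 ± 0.05 for Pvalb (2.8e-09) and -0.30 ± 0.06 for Calb2 (6.2e-05). Calb1 (0.05 ± 0.03, edgeR adjusted p = 0.14) and Nos1 (-0.06 ± 0.05, edgeR adjusted p = 0.36) did not pass. Thus 3 markers were called higher and 2 lower, in a fit that called 24.2% of 16319 genes higher and 23.4% lower, so that a call of either kind was common.

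In order of Slc17a7 from the lowest, the 10 libraries at or below 471 CPM had 172.8, 97.2, 44.7, 47.9, 162.5, 26.5, 28.5, 12.9, 64.0 and 67.5 CPM of Pvalb, and 9 of them lay above its overall median of 24.7. Vip had 1.47 to 18.7 CPM in these 10, all below its median of 25.4. Without them, the Pvalb slope was smaller by less than its SE, at -0.29 ± 0.14, and no longer passed (edgeR adjusted p = 0.12), with a larger SE. The slopes of Vip (0.85 ± 0.11), Cck (0.49 ± 0.09), Reln (0.41 ± 0.11) and Calb2 (-0.62 ± 0.14) kept their calls there, and those of Reln and Calb2 were steeper. In females alone Calb2 did not pass (-0.18 ± 0.10, edgeR adjusted p = 0.15), whereas it did in males alone (-0.42 ± 0.08, 3.2e-05), with no call for the difference between the sexes (adjusted p = 0.51). With Adora2a as a covariate, Nos1 also passed (-0.12 ± 0.05, edgeR adjusted p = 0.040).

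**Figure D2:**
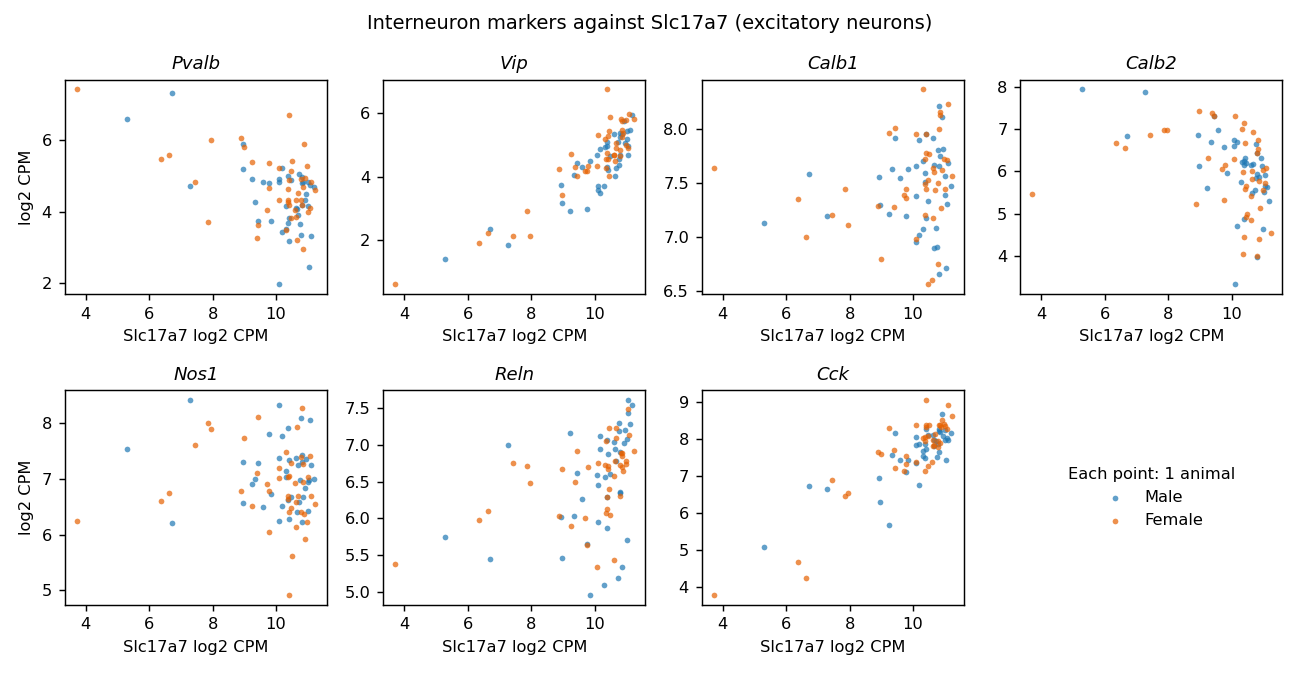
Log2 CPM of each interneuron marker (vertical) against log2 CPM of Slc17a7 (horizontal), with 1 point per animal, males in blue and females in orange. Vip and Cck rise along the whole axis. Many high Pvalb values lie at the left, where Slc17a7 is low, but Female 42 had 104.3 CPM of Pvalb at 1357 CPM of Slc17a7.

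The same relations were computed as correlations over the 84 animals, in a family of 15 that also held Adora2a against Slc17a7. Vip and Slc17a7 had Pearson's r = 0.874 (permutation p = 1e-05, adjusted 5e-05) and Spearman's rho = 0.788 (permutation p = 1e-05, adjusted 3e-05), where 1e-05 is the smallest p that 100000 permutations can give. Cck and Slc17a7 had r = 0.854 (same p) and rho = 0.691 (same p). Without the 2 animals farthest from the median of Slc17a7, r was 0.840 for Vip and 0.784 for Cck. Within the 4 runs of sample-sheet numbers, the possible batches that sample titles show, r was 0.905, 0.912, 0.944 and 0.736 for Vip and 0.930, 0.782, 0.958 and 0.699 for Cck. Without the 10 lowest libraries r was 0.675 for Vip and 0.592 for Cck.

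Pvalb against Slc17a7 gave r = -0.526 (permutation p = 1e-05, adjusted 5e-05) but rho = -0.287 (permutation p = 0.00793, adjusted 0.00915). Its r was -0.382 without the 2 farthest animals, -0.442 without Female 19, -0.165 without the 10 lowest libraries, and -0.378, -0.707, -0.817 and -0.413 within the runs. Calb2 gave r = -0.391 (permutation p = 0.00027, adjusted 0.000579) and rho = -0.472 (1e-05, adjusted 3e-05), with -0.445 without the 2 farthest and -0.374, -0.546, -0.125 and -0.507 within the runs. Reln gave r = 0.384 (permutation p = 0.00033, adjusted 0.000619) and rho = 0.502 (2e-05, adjusted 5e-05), with 0.308 without the 2 farthest and 0.584, 0.158, 0.707 and 0.210 within the runs. Calb1 (r = 0.155, adjusted permutation p = 0.17; rho = 0.221, adjusted 0.0463) and Nos1 (r = -0.0752, adjusted 0.495; rho = -0.0917, adjusted 0.404) had the weakest relations. Without the 10 lowest libraries r was -0.398 for Calb2 and 0.395 for Reln.

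The same fit placed the other interneuron genes on both sides of Slc17a7. Of 18 genes linked with interneurons of the medial ganglionic eminence, the origin of Pvalb cells, 5 went up and 8 down with it, including the peptide gene Cort (0.44), the transcription factor gene Nkx2-1 (-0.62), the synaptotagmin gene Syt2 (-0.55) and the tachykinin gene Tac1 (-0.38). Of 15 genes linked with those of the caudal ganglionic eminence, the origin of Vip cells, 6 went up and 6 down, including Crhbp (0.47), for the protein that binds corticotropin-releasing hormone, the serotonin receptor gene Htr3a (0.37), Chat (-0.99), for the enzyme that makes acetylcholine, and Sncg (-0.50). The fit called 24.2% of all genes higher and 23.4% lower, so that the 5 of 18 going up lay near that share. Median slopes were -0.02 and 0.05 in these lists, against 0.00 over all genes. Neither list moved in a single direction.

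Markers of other cells moved along the same axis. Of 15 excitatory neuron genes other than Slc17a7, 12 went up and 1 down, among them Neurod6 (1.00), Neurod2 (0.93) and Emx1 (0.88). GABA neuron genes went down in 7 of 9 cases, among them Dlx6 (-0.34) and Slc32a1 (-0.31), the vesicular GABA transporter. Striatal genes went down in 13 of 16 cases, central amygdala genes in 11 of 14 and cholinergic and pallidal genes in 8 of 8. Oligodendrocyte genes went down in 12 of 12 (Mobp, -0.50). The lists overlapped, with Pdyn and Penk in both the striatal and central amygdala lists. Isl1 was in both the central amygdala and cholinergic lists, and Chat in the cholinergic and caudal eminence lists. Of 12 tested thalamic, hypothalamic and medial amygdala neuron genes, 8 went down (Pmch, -1.32; Otp, -0.86) and 1 up, and the list of 14 summed to 71.8 to 1385 CPM in males and 78.3 to 279 CPM in females. The summed level of the cholinergic and pallidal genes ran from 6.14 to 247 CPM in males and from 5.12 to 326 CPM in females, and its median was 158.3 CPM in the 10 libraries lowest in Slc17a7, against 28.2 CPM in the other 74. Oligodendrocyte genes summed to a median of 8404 CPM in those 10 libraries and 3413 CPM in the other 74, with ranges of 1301 to 15505 CPM in males and 962 to 21055 CPM in females. Across animals, Vip correlated with these 2 sums at r = -0.799 and -0.745, and Pvalb at r = 0.498 and 0.595, given as descriptions. Every gene of both lists had a median of at least 1 CPM, and Chat reached down to 0.03 CPM. The part of these cells in the slopes was not tested.

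Against Adora2a, the marker of the striatal side, Pvalb alone went up and the other 6 went down. The log2 slope per 1 log2 CPM of Adora2a was 0.14 ± 0.05 for Pvalb (SE, edgeR adjusted p = 0.035). It was -0.17 ± 0.04 for Calb2 (0.0018), -0.16 ± 0.05 for Vip (0.013), -0.14 ± 0.03 for Nos1 (0.00019), -0.11 ± 0.04 for Cck (0.025), -0.10 ± 0.03 for Reln (0.0055) and -0.09 ± 0.02 for Calb1 (2.9e-05), each with edgeR. All 7 markers were called, where the fit called 10.8% of 16319 genes higher and 11.1% lower. These slopes were shallow, but Adora2a itself spanned more than 8 log2 units.

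The calls of 4 markers held more widely than the other calls. With either the run or Slc17a7 as a covariate, Calb1 (-0.09 in both), Calb2 (-0.19 and -0.22), Nos1 (-0.15 and -0.16) and Reln (-0.08 in both) still passed. Pvalb, Vip and Cck did not: with Slc17a7 as a covariate their slopes were 0.09, -0.06 and -0.05 (edgeR adjusted p = 0.11, 0.12 and 0.16), and with the run 0.14, -0.13 and -0.10 (edgeR adjusted p = 0.057, 0.063 and 0.065). Leaving out each library in turn, Pvalb lost its call without Male 3, Male 35, Female 14, Female 19, Female 33 or Female 37, with an edgeR adjusted p of up to 0.074, and its slope ranged from 0.12 to 0.19. Cck lost its call without Male 1 or Female 2, at up to 0.056. These refits kept the TMM factors and the dispersions (the modelled spread of counts) estimated over all 84 libraries. With no filter on low counts Pvalb lost its call (edgeR adjusted p = 0.062) and 6 markers passed. Without the 10 libraries lowest in Slc17a7, or the 10 lowest in Adora2a, all 7 passed. In males alone Nos1 passed (-0.13), and in females alone Pvalb (0.22), Calb1 (-0.11), Nos1 (-0.14) and Reln (-0.11).

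As correlations, Nos1 gave r = -0.454 with Adora2a (permutation p = 4e-05, adjusted 0.00012) and rho = -0.505 (1e-05, adjusted 3e-05), with -0.426 without the 2 farthest animals and -0.566, -0.475, -0.556 and -0.448 within the runs. Calb1 gave r = -0.458 (permutation p = 2e-05, adjusted 7.5e-05) and rho = -0.474 (1e-05, adjusted 3e-05), with -0.441 without the 2 farthest and -0.490, -0.160, -0.425 and -0.570 within the runs. Calb2 gave r = -0.437 (permutation p = 5e-05, adjusted 0.000125) and rho = -0.418 (9e-05, adjusted 0.000169), with -0.463 without the 2 farthest and -0.394, -0.580, -0.266 and -0.610 within the runs. Within the runs, r was -0.470, -0.107, -0.362 and -0.184 for Vip, -0.365, -0.109, -0.499 and -0.235 for Cck, and -0.494, 0.116, -0.538 and -0.352 for Reln. The relations of Nos1, Calb1, Calb2, Vip and Cck were negative in all 4 runs, and that of Reln in 3. That of Pvalb was not of 1 sign either, with r = 0.342 overall (permutation p = 0.00168, adjusted 0.00252), rho = 0.432 (6e-05, adjusted 0.000129), 0.318 without the 2 farthest and 0.550, -0.172, 0.308 and 0.499 within the runs. Adora2a and Slc17a7 themselves were weakly opposed over all animals, with r = -0.235 (adjusted permutation p = 0.0344) and rho = -0.388 (adjusted 0.00039). That opposition was not general, with r = -0.011 in males, -0.393 in females and -0.429, 0.075, -0.371 and -0.083 within the runs.

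**Figure D3:**
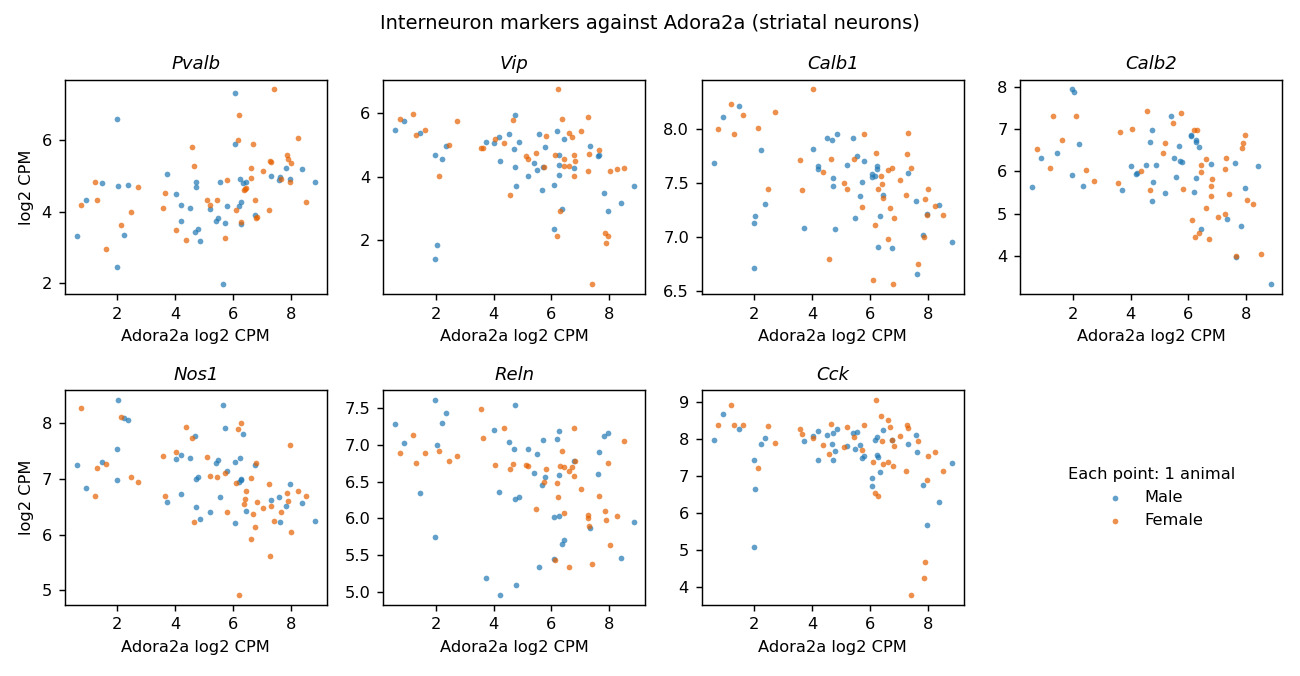
Log2 CPM of each interneuron marker (vertical) against log2 CPM of Adora2a (horizontal), with 1 point per animal, males in blue and females in orange. Calb1, Calb2 and Nos1 fall toward high Adora2a, and the trend of Pvalb, upward, is the only positive one.

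Along Adora2a, 15 of 15 other striatal genes went up, among them Drd2 (0.70), Rgs9 (0.61) and Gpr6 (0.59). So did 9 of 14 central amygdala genes and 7 of 8 cholinergic and pallidal genes. The largest central amygdala slopes were those of Pdyn (0.46), Isl1 (0.44) and Penk (0.41), which were not particular to that list. Pdyn and Penk were also in the striatal list, and Isl1 in the cholinergic one. As many as 10 of 12 oligodendrocyte genes went up as well. Of the interneuron lists, 4 of 18 genes linked with the medial ganglionic eminence went up and 2 down. In the list linked with the caudal eminence, 2 of 15 went up and 5 down. The fit called 10.8% of all genes higher and 11.1% lower. The 2 down in the first list and the 2 up in the second lay near those shares. Tac1 (0.33), which is also a gene of striatal neurons, Syt2 (0.32) and Nkx2-1 (0.22) rose, as did Chat (0.48), while Htr3a (-0.24), the transcription factor gene Nr2f2 (-0.19) and Crhbp (-0.15) fell. The part of neighbouring cells in the markers' slopes was not tested.

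Both dissection markers together accounted for 77.7% of the variance in log2 CPM of Vip and 74.5% of that of Cck. The share was 44.9% for Calb2, 32.7% for Pvalb, 24.2% for Nos1, 21.9% for Reln and 21.2% for Calb1, against a median of 11.0% over expressed genes. These are descriptions. The slopes on Slc17a7 and on Adora2a were also compared between males and females. No marker passed, and the smallest unadjusted p was 0.0166, for Cck on Slc17a7 (male minus female -0.19 ± 0.08, edgeR adjusted p = 0.37). The terms for Slc17a7 and for Adora2a called 0.0552% and 0% of genes, with 1876 and 622 at an unadjusted p under 0.05.

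The markers were then set against each other. Over the 21 pairs, 14 passed with Pearson's r and 9 with Spearman's rho, adjusted over the 21. The share that passes among pairs of other genes was not computed, so the count does not set these markers apart. Vip and Cck formed the closest pair, with r = 0.885 (permutation p = 1e-05, adjusted 0.000105) and rho = 0.870 (permutation p = 1e-05, adjusted 4.2e-05). Their r was 0.877 without the 2 animals farthest in Cck, 0.865 in males, 0.906 in females and 0.950, 0.884, 0.908 and 0.886 within the runs. Among 13373 expressed genes, Cck ranked 13th in likeness to Vip and Vip ranked 3rd in likeness to Cck. In likeness to Nos1, Calb2 ranked 170th and Reln 1911th. Vip ranked 841st in likeness to Calb1, and Calb1 1754th in likeness to Vip. In likeness to Reln, Vip ranked 2248th and Cck 2377th, so many other genes were closer. After sex, run, Slc17a7 and Adora2a were fitted and removed, r between Vip and Cck was 0.497 (adjusted permutation p = 5.25e-05). The pair thus still varied together at a given level of both dissection markers. It was not the closest pair in those residuals, where Calb1 with Vip had r = 0.556.

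Calb2 and Nos1 formed another pair, with r = 0.611 (permutation p = 1e-05, adjusted 0.000105) and rho = 0.632 (1e-05, adjusted 4.2e-05). Their r was 0.568 without the 2 farthest animals, 0.559 in males, 0.658 in females, 0.570, 0.596, 0.351 and 0.695 within the runs, and 0.474 after removal of both dissection markers, sex and run (adjusted permutation p = 0.000126). Nos1 also went with Reln (r = 0.338, permutation p = 0.00175, adjusted 0.00408; rho = 0.362, p = 0.0008, adjusted 0.0024), with 0.354 without the 2 farthest and 0.203, 0.300, 0.690 and 0.274 within the runs. Calb1 went with Vip (r = 0.433, permutation p = 2e-05, adjusted 0.00014; rho = 0.574, p = 1e-05, adjusted 4.2e-05), with 0.458 without the 2 farthest and 0.630, 0.486, 0.216 and 0.370 within the runs. With the 10 libraries lowest in Slc17a7 left out, r was 0.827 for Vip with Cck, 0.598 for Calb2 with Nos1, 0.308 for Nos1 with Reln and 0.521 for Calb1 with Vip. Calb2 and Reln, each correlated with Nos1, were not correlated with each other (r = 0.0364, adjusted permutation p = 0.779; rho = -0.00524, adjusted 0.962). The summed level of 14 thalamic, hypothalamic and medial amygdala neuron genes correlated with Calb2 at r = 0.516 and with Nos1 at r = 0.400, as a description, and the part of those cells in the pair was not tested.

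Pvalb was opposed to Nos1 and Reln. With Nos1 its r was -0.448 (permutation p = 5e-05, adjusted 0.000262) and rho -0.473 (1e-05, adjusted 4.2e-05), with -0.419 without the 2 farthest and -0.490, 0.193, -0.615 and -0.544 within the runs, so that the second run did not share the sign. With Reln its r was -0.411 (permutation p = 0.00016, adjusted 0.000672) and rho -0.436 (7e-05, adjusted 0.000245), with -0.509 without the 2 farthest and -0.659, -0.468, -0.657 and -0.290 within the runs. With the 10 libraries lowest in Slc17a7 left out, r was -0.551 with Nos1 and -0.287 with Reln, and both passed (adjusted permutation p = 5.25e-05 and 0.0314). Both relations also passed after removal of the dissection markers, sex and run, at -0.522 and -0.263 (adjusted permutation p = 5.25e-05 and 0.0282).

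The relation of Pvalb to Vip and Cck changed sign with the libraries and terms used. Over all animals r was -0.318 with Vip (permutation p = 0.00325, adjusted 0.00683) and -0.360 with Cck (p = 0.00113, adjusted 0.00318), while rho was -0.126 (adjusted permutation p = 0.314) and -0.113 (adjusted 0.341). Without the 2 farthest animals r was -0.156 and -0.218, and within the runs -0.164, -0.553, -0.673 and -0.099 for Vip and -0.107, -0.510, -0.811 and -0.171 for Cck. Without the 10 libraries lowest in Slc17a7, r was 0.128 and 0.050. After removal of both dissection markers, sex and run, r was 0.431 with Vip and 0.304 with Cck (adjusted permutation p = 0.000245 and 0.0114). The pooled negative r was thus not seen without those 10 libraries, which were left out after the data were seen, and its sign in the residuals was positive. The cause of the change was not tested.

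**Figure D4:**
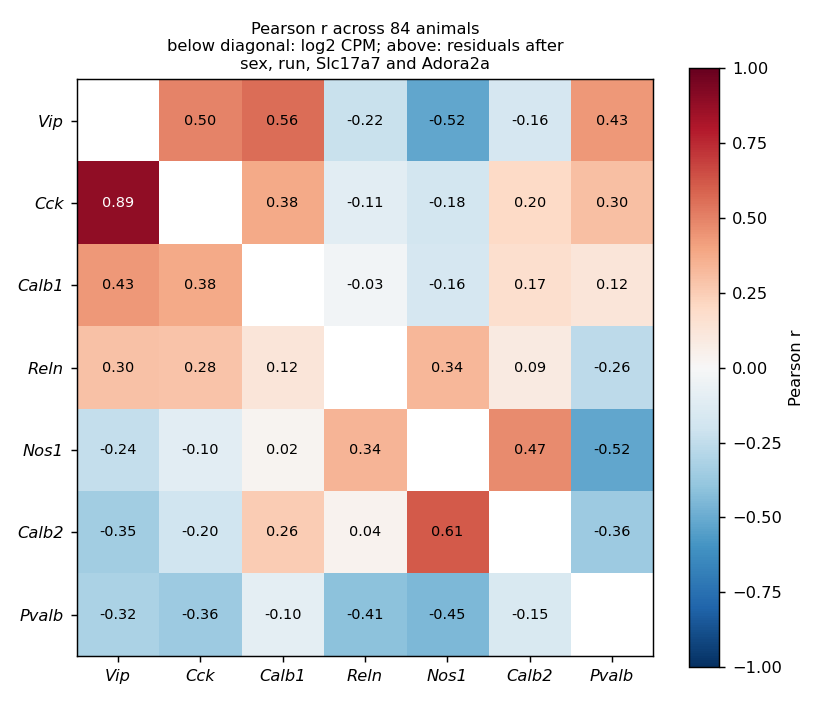
Pearson's r between each pair of interneuron markers across 84 animals, for log2 CPM below the diagonal and for residuals after sex, run, Slc17a7 and Adora2a above it. Vip and Cck share the highest value below the diagonal (0.89), Calb2 and Nos1 the next (0.61), and the cells of Pvalb with Vip and with Cck change sign between the sides of the plot.

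Of the other 6 pairs past the threshold with Pearson's r, 4 were positive: Calb1 with Cck (r = 0.381, adjusted permutation p = 0.00126; rho = 0.578, adjusted 4.2e-05), Vip with Reln (0.296, 0.0115; 0.261, 0.0386), Reln with Cck (0.284, 0.0148; 0.209, 0.117) and Calb1 with Calb2 (0.255, 0.0304; 0.179, 0.154). Vip was opposed to Calb2 (r = -0.348, adjusted permutation p = 0.00318; rho = -0.338, adjusted 0.00525) and to Nos1 (-0.239, 0.0425; -0.182, 0.154). Within the runs some of these relations were less steady. Reln with Cck had r of 0.378, -0.048, 0.679 and 0.307, and Calb1 with Calb2 0.229, -0.054, -0.029 and 0.582. Vip with Reln had 0.378, -0.078, 0.607 and 0.256. Signs were kept by Vip with Calb2 (-0.321, -0.429, -0.233 and -0.337) and by Calb1 with Cck (0.588, 0.405, 0.023 and 0.422). Vip with Nos1 had 0.039, -0.345, 0.141 and -0.481 within the runs, and -0.116 without the 2 farthest animals. After removal of both dissection markers, sex and run, the opposition of Vip and Nos1 was stronger, with r = -0.520. Without the 10 libraries lowest in Slc17a7, Vip with Calb2 (-0.188, adjusted permutation p = 0.188), Vip with Reln (0.215, adjusted 0.127) and Reln with Cck (0.148, adjusted 0.310) did not pass, while Calb1 with Cck (0.496), Calb1 with Calb2 (0.376) and Vip with Nos1 (-0.271) did. Pvalb with Calb2 passed only there and in the residuals (-0.349 and -0.362). The 7 pairs that did not pass over all animals had r between -0.200 and 0.118.

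Genes with the most similar pattern were found for each marker by Pearson's r over the 84 libraries, which share depth and dissection, and are given as a description. For Pvalb they were Msrb1 (0.750), Kcnab3 (0.745) and Fndc5 (0.740). For Vip they were Arhgap15 (0.920), Rtn4r (0.918) and Emx1 (0.916), and for Cck Arhgap15 (0.889), Emx1 (0.888) and Vip (0.885). Emx1 is a transcription factor gene of cortical excitatory neurons and belonged to the excitatory list. Calb2 was closest to Igsf1 (0.855), Slc1a6 (0.844) and Esyt3 (0.843), Nos1 to Crim1 (0.816), Ttc28 (0.804) and C530008M17Rik (0.796), Calb1 to Lipt2 (0.749), Tmeff2 (0.724) and Mybpc1 (0.695), and Reln to Dab1 (0.800), Lingo2 (0.797) and Ndnf (0.783). The most opposed genes were Clip1 for Pvalb (-0.702), Ache for Vip (-0.888), Rassf4 for Cck (-0.837), Prkcb for Calb2 (-0.813), Ccz1 for Nos1 (-0.733), Nfasc for Calb1 (-0.727) and Ttc12 for Reln (-0.725).

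Drinking was compared last, since the study was designed around ethanol preference, taken as a mean over 13 weeks, in week 1 or in week 13. Mean preference was 0.210 ± 0.152 in males and 0.272 ± 0.170 in females (SD, n = 41 and 43). With edgeR, none of the 7 interneuron markers passed in any of 9 fits, which set the 3 measures against expression in males, in females and in all animals. For mean preference, 0% of 16320 genes were called in males, in females or over all animals, with 270, 1135 and 643 genes at an unadjusted p under 0.05. For week 1 preference the fits called 0.0368% of genes in males, 0% in females and 0.0306% over all animals, and without Male 39 they called 0 genes in males and 0 over all animals, against 6 and 5. For week 13 preference they called 0% in males, 0.0368% in females and 0% over all animals. In females, the week 13 share depended on the setting, since DESeq2 called 1.26% of genes, and edgeR 3.50% for intake in g/kg, none of them a marker. DESeq2 called no marker in any of the 9 fits.

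Slopes on mean preference over all animals were near 0 for each marker. Per 0.5 rise in preference, the log2 slope was -0.20 ± 0.33 for Pvalb, 0.06 ± 0.36 for Vip, -0.14 ± 0.13 for Calb1, -0.04 ± 0.28 for Calb2, 0.06 ± 0.21 for Nos1, -0.10 ± 0.21 for Reln and 0.06 ± 0.27 for Cck (SE, edgeR adjusted p = 0.9995 for each). For week 13, Pvalb had the steepest slope, -0.55 ± 0.26 (edgeR unadjusted p = 0.0386, adjusted 0.78). It was -0.49 ± 0.41 in males and -0.60 ± 0.33 in females. In males, week 13 slopes of Calb2 (-0.71 ± 0.33, edgeR unadjusted p = 0.0358) and Calb1 (-0.31 ± 0.14, 0.0341) had an adjusted p of 0.98, and in females they were 0.18 ± 0.29 and -0.09 ± 0.15. These were the 3 results at an unadjusted p under 0.05 in the 9 fits. The SE on mean preference was 0.21 to 0.36 for the markers other than Calb1. Changes of that size per 0.5 preference, and larger ones, were not detectable with these animals. Even the week 13 slope of Pvalb, -0.55 ± 0.26, had an edgeR adjusted p of 0.78.

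**Figure D5:**
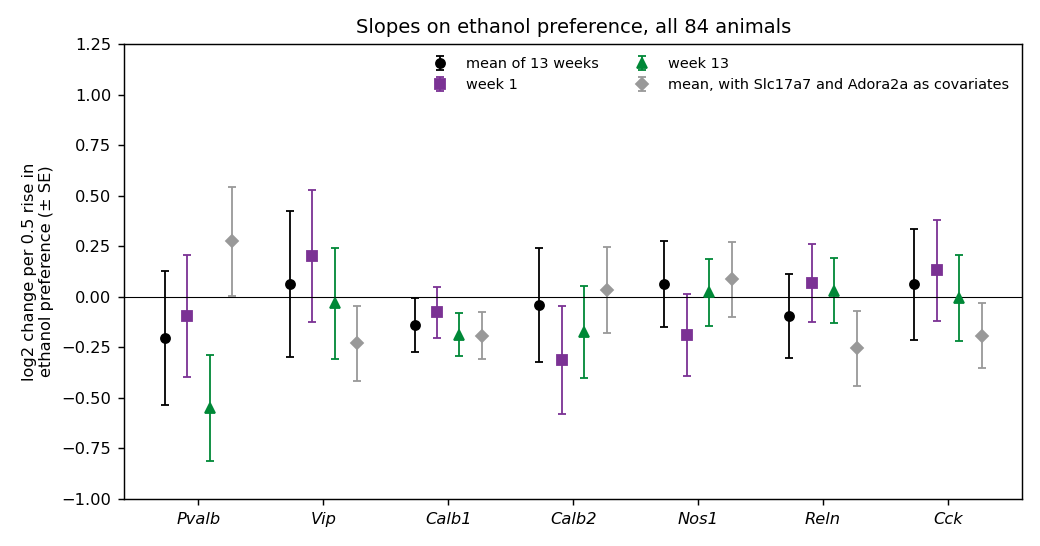
Log2 slopes of the interneuron markers per 0.5 rise in ethanol preference in 84 animals, with bars of 1 SE, for the mean of 13 weeks, week 1, week 13, and the mean with Slc17a7 and Adora2a as covariates. The slope of Pvalb on week 13 preference (-0.55) is the steepest, and no slope passed after adjustment.

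For the difference in slope on mean preference between males and females, edgeR called 0 of 7 markers and 0% of genes, with 529 genes at an unadjusted p under 0.05 and no marker among them. No marker passed between the sexes either. The log2 difference, male over female, was -0.27 ± 0.22 for Pvalb, -0.27 ± 0.21 for Vip, -0.16 ± 0.17 for Cck, -0.06 ± 0.09 for Calb1, 0.05 ± 0.19 for Calb2, 0.05 ± 0.13 for Reln and 0.18 ± 0.14 for Nos1 (SE, edgeR adjusted p of 0.99 for each). The fit for sex called 0.0919% of genes.

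The 4 runs of sample-sheet numbers differed in Calb1 (edgeR adjusted p = 0.037) and Reln (0.018), 2 of 7 markers, where the fit called 21.7% of genes. Reln had medians of 113, 107, 110.4 and 78.6 CPM in the first to the fourth run, and Calb1 207.5, 147.5, 174.7 and 193.02 CPM. Slc17a7 had medians of 1923, 1468, 1343 and 1099 CPM in the same runs. With Slc17a7 and Adora2a as covariates, neither Calb1 (edgeR adjusted p = 0.064) nor Reln (0.058) passed. Vip, with medians of 40.1, 21.7, 19.6 and 23.6 CPM, did not pass (0.083 with edgeR).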

How the data were processed

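RNA of 84 laser-dissected amygdala samples was sequenced from stranded, poly(A)-selected libraries, per the labels' protocols. The deposited values are counts of reads per gene without normalization, and the submitters' processing notes name FastQC, STAR, Subread featureCounts 1.6.0, DESeq2 and build GRCm38 (mm10). Whether counting used strand is not given in the sources used here, so reads of antisense partners could not be told apart. The 8 columns of undetermined reads or no values were not used. Total counts had a median of 31573088.5 per library.

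Genes were kept with edgeR 4.0.16 (filterByExpr, sexes as groups, minimum count 10, minimum total 15), which left 16320. TMM-scaled counts were fitted with the robust quasi-likelihood test, with Benjamini-Hochberg adjustment over all genes tested and calls at an adjusted p under 0.05. Slopes are given on the log2 scale ± SE. CPM and log2 CPM (prior count 2) used TMM-scaled totals, and Slc17a7 and Adora2a entered as log2 CPM. Sex came from the labels. The p-values measure spread between animals. Permutation tests were 2-sided with 100000 permutations. Likeness was ranked among genes averaging at least 1 log2 CPM. For each gene list, the text names up to 4 members with the largest slopes among those called. The scripts were tested on simulated data. DESeq2 1.42.0 and other settings served as alternatives. The markers, lists and tests were chosen with earlier results of these data known. Exclusion of the 10 libraries lowest in Slc17a7 or in Adora2a, the comparison of marker slopes between sexes, and leaving out each library in turn were added after the data were seen.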

Additional observations from a re-analysis of the deposited data

How the results depend on the processing

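The count of markers called for Adora2a was 4 with the run as a covariate, 4 with Slc17a7 as a covariate, 1 in males alone and 4 in females alone, against 7, 6 with no filter on low counts (Pvalb lost), and 6 to 7 when each library was left out. For the run it was 1 with no filter on low counts and 0 with Slc17a7 and Adora2a as covariates, against 2. Of 21 pairs, 9 passed with Spearman's rho, 8 in males alone and 7 in females alone, against 14. The fewer animals in each sex lower the power of those fits, and the other causes were not tested. No drinking or sex fit called a marker under any setting, DESeq2 included. Shares of all genes moved more: for week 13 preference in females edgeR called 0.0368%, against 0.308% with no filter, 0.147% with the run, 0.196% with Slc17a7 and Adora2a, 1.26% with DESeq2 and 3.50% for intake. Intake also called 1.26% for the mean in females, and 0.0490% for the mean and 0.411% for week 13 over all animals, against 0% in each. No paired analysis was possible because the labels carry no replicate numbers.

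No slope on drinking or sex had passed, and 26 changed sign. With Slc17a7 and Adora2a as covariates, slopes on mean preference were -0.23 for Vip, 0.033 for Calb2, -0.19 for Cck and 0.27 for Pvalb. On week 1 preference they were -0.044 for Reln, -0.14 for Vip, -0.15 for Cck and 0.28 for Pvalb, on week 13 preference -0.12 for Reln and 0.010 for Calb2, and for sex -0.031 for Reln. Without the 10 libraries lowest in Slc17a7 they were -0.19 for Vip, -0.15 for Cck and 0.38 for Pvalb on mean preference, 0.28 for Pvalb on week 1, -0.064 for Reln and -0.064 for Nos1 on week 13, and -0.073 for Calb2 by sex. With the run as a covariate they were 0.033 for Reln on mean preference, and -0.026 for Reln and -0.015 for Vip on week 1. Per 10 g/kg of ethanol intake they were -0.034 for Nos1 on the mean, and -0.040 for Nos1, 0.038 for Vip and 0.010 for Cck on week 13, with -0.15 for Calb2 in females.

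Correlations that changed sign after sex, run, Slc17a7 and Adora2a were removed were 0.431 for Pvalb with Vip, 0.119 with Calb1 and 0.304 with Cck, -0.221 for Vip with Reln, -0.164 for Calb1 with Nos1, -0.0300 with Reln, 0.198 for Calb2 with Cck and -0.108 for Reln with Cck. Without the 10 libraries lowest in Slc17a7, Pvalb had 0.128 with Vip and 0.0501 with Cck. In males alone, Calb2 had 0.0353 with Pvalb and -0.0339 with Reln, and in females alone Calb1 had -0.0293 with Nos1. Spearman's rho was -0.00524 for Calb2 with Reln. Under alternatives, every slope on Slc17a7 or Adora2a kept its direction, 18 lost the call and 1 gained it.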
